A study of Mus musculus with 24 samples.

Results

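The genes described are 10 tubulin isotypes of mouse visual cortex, taken by symbol from the 23881 genes of the deposited RPKM table. They comprise 4 alpha-tubulin genes (Tuba1a, Tuba1b, Tuba1c and Tuba4a) and 6 beta-tubulin genes (Tubb2a, Tubb2b, Tubb3, Tubb4a, Tubb4b and Tubb5), and all 10 were found. RNA of visual cortex was sequenced in 12 libraries of C57BL6J mice of both sexes kept under normal rearing, 4 libraries per group. P28-KO were mice aged 28 days in which miR-132/212 is deleted from the germ line, that is in every cell type, P28-wt were wild-type mice of 28 days, the methods giving wt littermates as controls, and P10-wt were wild-type mice of 10 days. Mutants of 10 days were not analysed here, so the effect of the deletion on the course of development cannot be read from these groups, and the P28-wt libraries serve in both comparisons. Each column name carries a pair of further numbers beside the replicate number, and whether a library holds 1 animal or several is not given in the sources used here. The p-values therefore measure the spread between these libraries.

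Microtubules are hollow polymers of alpha- and beta-tubulin dimers that give axons and dendrites their shape and serve as tracks for transport. Mammals encode each subunit in several genes, the isotypes, whose products share a nearly identical core and differ mostly in the acidic C-terminal tail, which lies on the outside of the microtubule and carries glutamylation and other modifications. In the developing brain tubulin is among the most abundant proteins while neurites grow, and human mutations in TUBA1A, TUBB2B, TUBB3 and TUBB (Tubb5 in the mouse) disturb neuronal migration or axon guidance. Mutations in human TUBB4A instead disturb myelin, and Tubb4a is rich in oligodendrocytes as well as in neurons.

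The coding sequence of the tail is shown for Tuba4a and the 6 beta-tubulin genes because it is in general the stretch by which isotypes differ most. Each line gives the last 20 codons and the stop codon, 5′ to 3′ on the coding strand, from RefSeq models on GRCm38.p6, the assembly also named mm10, and capitals mark in-frame glutamate codons (GAA or GAG).
Tuba4a, chr1:75215622-75215684, minus strand: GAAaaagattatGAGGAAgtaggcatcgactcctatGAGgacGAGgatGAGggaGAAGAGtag
Tubb2a, chr13:34074468-34074530, minus strand: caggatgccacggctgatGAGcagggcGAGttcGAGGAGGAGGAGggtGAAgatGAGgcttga
Tubb2b, chr13:34127471-34127533, minus strand: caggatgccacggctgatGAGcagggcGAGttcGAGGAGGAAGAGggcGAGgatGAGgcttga
Tubb3, chr8:123421620-123421682, plus strand: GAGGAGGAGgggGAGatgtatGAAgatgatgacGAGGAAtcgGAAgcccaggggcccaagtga
Tubb4a, chr17:57080690-57080752, minus strand: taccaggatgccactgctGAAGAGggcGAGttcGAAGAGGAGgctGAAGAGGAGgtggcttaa
Tubb4b, chr2:25222308-25222370, minus strand: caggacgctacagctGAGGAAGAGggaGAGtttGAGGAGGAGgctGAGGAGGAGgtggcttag
Tubb5, chr17:35834982-35835044, minus strand: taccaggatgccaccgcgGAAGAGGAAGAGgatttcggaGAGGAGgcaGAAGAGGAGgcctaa
Between 8 glutamate codons (Tuba4a, Tubb2a, Tubb2b and Tubb3) and 10 (Tubb4b) fell in these last 20 codons. Tuba4a ends in a glutamate codon and so encodes an alpha-tubulin without the terminal tyrosine that the detyrosination cycle removes and restores. Tubb3, the neuronal beta-tubulin, ends in a lysine codon and the other 5 beta-tubulins in an alanine codon. The tails of Tubb2a and Tubb2b differ at 3 of these 63 bases, all synonymous, so the amino acids they encode are the same. The whole coding sequences of Tuba1a and Tuba1b, of 1356 bases, differ at 23 positions (98.3% identity). Tubb2a and Tubb2b, neighbours on chromosome 13, differ at 47 of 1338 coding bases (96.5% identity), while Tubb4a and Tubb5, of equal coding length on chromosome 17, are 83.5% identical.

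The copies bear on what the values mean, because the authors kept only reads that mapped to a single place. For each gene, every 100-base window of the mRNA was looked up in the genome and in the mRNAs of the others among the 10 tubulins. The spliced mRNAs of further genes were not searched. An exact copy elsewhere existed for 80.1% of the windows of Tuba1b, 57.1% of Tuba1a, 53.6% of Tuba1c, 37.0% of Tubb2a, 34.9% of Tubb2b, 29.9% of Tubb4b and 0.8% of Tubb3. No window of Tuba4a, Tubb4a or Tubb5 had such a copy. For Tuba1a, 43.9% of the windows recurred in another of the 10 tubulins, and the rest of its copies lay at other loci. Tuba1a (chr15:98950864-98950963, minus strand) and Tuba1b (chr15:98932412-98932511, minus strand) share a stretch of 100 bases letter for letter. It is shown as an example of sequence where a read by itself cannot be placed.
Shared stretch: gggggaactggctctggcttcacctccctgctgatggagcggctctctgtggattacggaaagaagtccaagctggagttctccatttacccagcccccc
Levels compared between isotypes, and every share given here, can therefore understate Tuba1a, Tuba1b, Tuba1c, Tubb2a, Tubb2b and Tubb4b relative to the others. The reads were paired, however, and a mate in unique sequence may place a read, so windows taken singly can overstate the loss. Values divided by the share of unique windows, given below, carry this limit. A comparison of the same gene between groups has the same windows on either side.

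**Figure D1:**
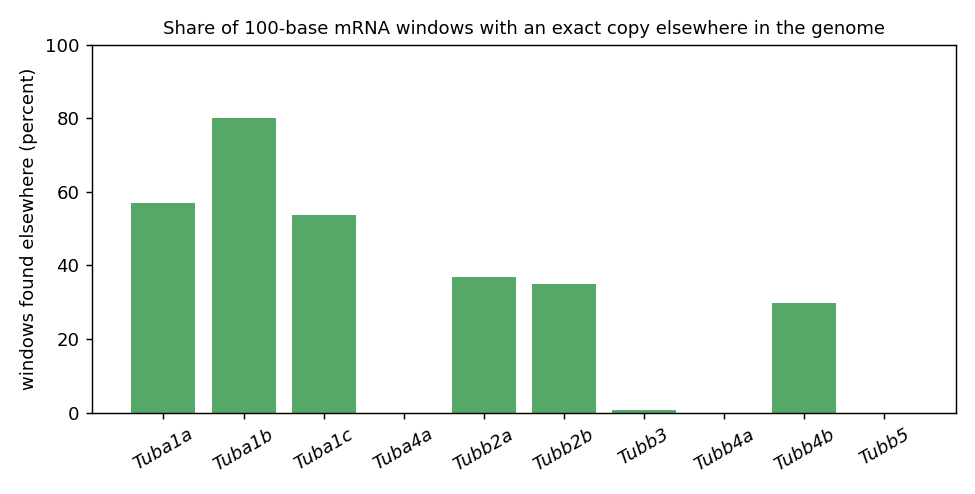
Share of the 100-base windows of each tubulin mRNA (x axis) that occur exactly at another place in the genome or in the mRNA of another of the 10 tubulins (y axis, percent, from 0 to 100). The bar of Tuba1b reaches 80.1% and that of Tuba1a 57.1%, while Tuba4a, Tubb4a and Tubb5 are at 0.

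Values are RPKM, that is reads divided by exon length and by the number of mapped reads, and no counts were used here. The depth was estimated from the steps in low values, with a common step fitted to those values in each library. RPKM times RefSeq transcript length fell within 0.1 of a whole multiple of this step for 55.5% to 60.9% of the low values. A step not fitted to the values would give 20% by chance, so that share is no test of the fitted step. These steps correspond to about 23.7 to 35.4 M reads in P28-KO, 18.2 to 44.3 M in P28-wt and 31.3 to 91.6 M in P10-wt. The number of reads behind the most frequent low value was assumed and sets the scale of these depths. The upper P10-wt estimates exceed the approximate reads per sample stated in the methods of the study, and the reason was not tested. Genes above 0 numbered 17358 to 17881, 17092 to 18000 and 17684 to 19006 in these groups. Mir132 and Mir212, the deleted genes, were listed at 0 in all 4 P28-KO libraries, against 9.74 to 14.4 RPKM (Mir132) and 14.0 to 24.7 RPKM (Mir212) in P28-wt. Library 103R of P10-wt stood apart from the other 3 on the first principal component (-79.03, against -56.9 to -55.3) and was the deepest of the 12 by these steps. Fold changes by age without it are given for Tubb2b, Tuba4a and Tubb4a only.

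The comparison by age asks which tubulins the visual cortex expresses before eye opening and at the height of the critical period. The isotypes moved in opposite directions: of the 9 tested with limma on log2(RPKM + 0.1), 6 fell (Tubb2b, Tuba1a, Tubb3, Tubb5, Tubb2a and Tuba1b), 2 rose (Tuba4a and Tubb4a), and Tubb4b did not pass an adjusted p of 0.05. Among all 13927 genes tested, 31.2% were called lower and 26.7% higher in P28-wt than in P10-wt. The groups did not overlap for the 6 tubulins that fell and the 2 that rose, where 29.7% of all genes lay wholly lower and 24.9% wholly higher. The median log2 fold change was -1.46 over the 9 tubulins and -0.05 over all genes tested. The summed RPKM of the 10 tubulins was 2033 ± 175 in P28-wt and 4754 ± 710 in P10-wt (SD, n = 4 each), or 0.727% ± 0.0513 and 1.77% ± 0.280 of the summed RPKM of all genes.

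Tubb2b, the beta-tubulin whose human counterpart is mutated in polymicrogyria, had the largest fold change of the 9. Its level was 46.2, 37.3, 46.0 and 40.2 RPKM in P28-wt, against 959, 466, 474 and 558 RPKM in P10-wt. Every P10-wt library was thus more than 10 times the highest P28-wt library, and 103R was the highest. The log2 fold change was -3.79 (SE 0.21, adjusted p = 5.57e-07), and -3.55 without 103R, the alternative with the smallest change. Its near copy Tubb2a, the neighbouring beta-tubulin gene, stayed far higher in P28-wt, at 236, 218, 261 and 204 RPKM, against 623, 627, 614 and 662 RPKM in P10-wt. Its log2 fold change was -1.46 (SE 0.10, adjusted p = 2.00e-06). The ratio of Tubb2a to Tubb2b was 5.09 to 5.83 in the P28-wt libraries and 0.650 to 1.35 in the P10-wt libraries, so that only 103R held more Tubb2b than Tubb2a.

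Tuba1a, the main alpha-tubulin of growing neurons, was the most abundant of the 10 at day 10. It measured 304, 320.1, 355 and 297 RPKM in P28-wt, against 1824, 1302, 1211 and 1401 RPKM in P10-wt. The log2 fold change of -2.15 (SE 0.14, adjusted p = 1.50e-06) went with a mean that fell by 77.8% in P28-wt. Tuba1b, an alpha-tubulin found in most cell types, had 47.8, 58.1, 57.0 and 48.6 RPKM in P28-wt, against 66.1, 66.2, 64.2 and 73.5 RPKM in P10-wt. The groups did not overlap, but the change was small, a log2 fold change of -0.36 (SE 0.09, adjusted p = 0.00615). The 95% intervals of the 2 fold changes, -2.47 to -1.84 for Tuba1a and -0.55 to -0.16 for Tuba1b, did not overlap.

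Tubb3, the class III beta-tubulin used as a marker of neurons, had 212, 217, 245 and 197 RPKM in P28-wt, against 1008, 681, 664 and 786 RPKM in P10-wt. Its log2 fold change was -1.83 (SE 0.14, adjusted p = 3.97e-06). Tubb5, a beta-tubulin of progenitors and young neurons whose human mutations cause microcephaly, had 212, 190.2, 235 and 196 RPKM in P28-wt, against 858, 629.9, 598 and 669.6 RPKM in P10-wt. All P28-wt values of both genes lay far below all P10-wt values, and 103R was the highest library for both. For Tubb5 the log2 fold change was -1.71 (SE 0.13, adjusted p = 3.37e-06).

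Tuba4a, the alpha-tubulin without an encoded terminal tyrosine, rose. It had 389, 328, 417 and 341 RPKM in P28-wt, against 106, 195, 186 and 201 RPKM in P10-wt, with 103R the lowest. The log2 fold change was 1.14 (SE 0.19, adjusted p = 6.04e-04), and 0.92 without 103R (adjusted p = 5.06e-05). Tubb4a, the beta-tubulin of neurons and myelinating cells, also rose, to 467, 521, 535 and 433 RPKM in P28-wt, against 220.2, 260.1, 261 and 268 RPKM in P10-wt. Its log2 fold change was 0.95 (SE 0.11, adjusted p = 4.24e-05), and 0.89 without 103R. Of the 10 tubulins, these 2 alone had a higher mean RPKM in P28-wt than in P10-wt.

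Tubb4b, a widely expressed beta-tubulin that also serves in cilia, had 109, 98.9, 119 and 92.3 RPKM in P28-wt, against 93.0, 110.2, 106 and 124 RPKM in P10-wt. The groups overlapped, and the log2 fold change was -0.04 with a 95% interval of -0.29 to 0.20 (adjusted p = 0.756). After removal of a smooth trend on length and GC content from each library it was -0.25 and was called (adjusted p = 0.0424). Tuba1c was the rarest, with 0.171 to 0.319 RPKM in P28-wt, against 0.400 to 0.675 RPKM in P10-wt, and its mean over the 12 libraries lay below the minimum of 0.5 RPKM for the test. By the estimated depth this was about 9 to 16 reads per P28-wt library and 42 to 104 reads per P10-wt library. Without a minimum, Tuba1c was called lower in P28-wt (log2 fold change -0.92, SE 0.20, adjusted p = 0.00566).

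**Figure D2:**
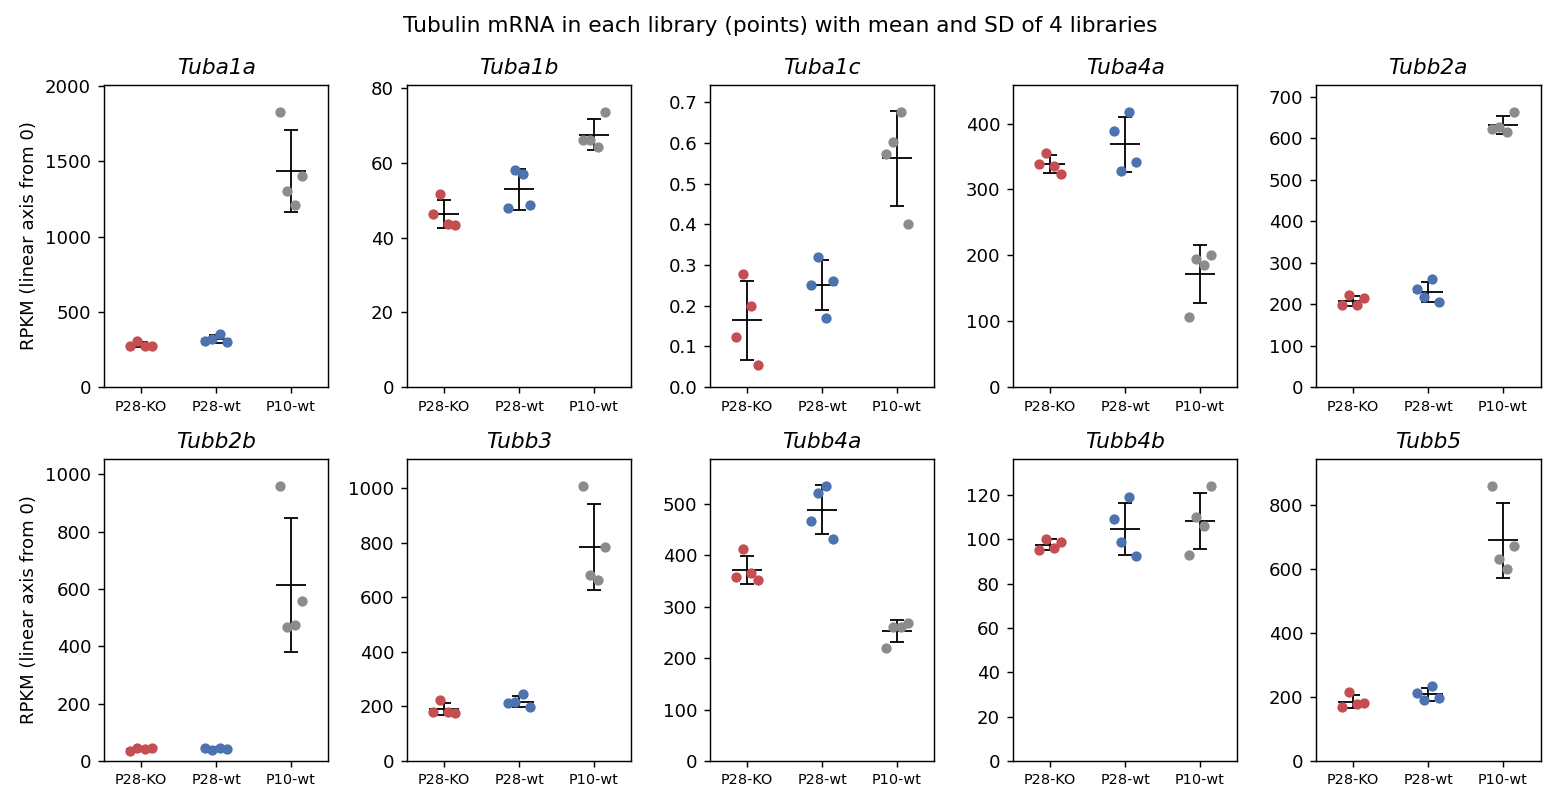
RPKM (y axes, linear from 0) of the 10 tubulins in P28-KO, P28-wt and P10-wt (x axes); points are libraries, and the bars give the mean and SD of 4 libraries. Tuba4a and Tubb4a are higher in P28-wt than in P10-wt, while Tubb2b is at 42.4 ± 4.41 RPKM in P28-wt and 614 ± 234 RPKM in P10-wt.

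The order of the isotypes turned over between the ages. In P28-wt the mean levels ran Tubb4a (489 RPKM), Tuba4a (369), Tuba1a (319), Tubb2a (229.8), Tubb3 (218), Tubb5 (208), Tubb4b (105), Tuba1b (52.9), Tubb2b (42.4) and Tuba1c (0.250). Neighbours in this order whose libraries overlapped were Tuba4a with Tuba1a, Tubb2a with Tubb3 and Tubb3 with Tubb5. In P10-wt the means ran Tuba1a (1435 RPKM), Tubb3 (784), Tubb5 (689), Tubb2a (631), Tubb2b (614), Tubb4a (252), Tuba4a (172), Tubb4b (108), Tuba1b (67.5) and Tuba1c (0.563). There Tubb3, Tubb5 and Tubb2a each overlapped the next in line, as did Tuba4a and Tubb4b. The 2 isotypes that rose stood at the top at day 28 and below 5 others at day 10. These orders hold for RPKM of uniquely placed reads, and after division by the share of unique windows Tuba1a led at both ages (744 in P28-wt and 3344 in P10-wt, in RPKM so divided).

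As shares of the summed tubulin RPKM, given as a description without a test, Tubb4a held 24.1% ± 1.44 in P28-wt and 5.43% ± 1.10 in P10-wt (SD, n = 4 each). Tuba4a held 18.1% ± 1.15 and 3.75% ± 1.28 in the same groups. Together the 2 genes made up 41.8% to 42.7% of the pool in the P28-wt libraries, against 5.66% to 10.7% in the P10-wt libraries. Tuba1a held 15.7% ± 0.496 of the pool in P28-wt and 30.1% ± 1.16 in P10-wt, and Tubb2b 2.09% ± 0.177 and 12.6% ± 2.72. Tubb3, Tubb5 and Tubb2a moved less as shares, with 10.7%, 10.3% and 11.3% in P28-wt and 16.4%, 14.5% and 13.5% in P10-wt. Tubb4b, whose own level did not pass the test, held 5.15% ± 0.204 in P28-wt and 2.32% ± 0.473 in P10-wt, and Tuba1b, which fell, 2.61% ± 0.238 and 1.44% ± 0.195. These shares depend on unplaced reads. With levels divided by the share of unique windows, a calculation added after the values were seen, Tuba1a held 25.9% ± 0.615 in P28-wt and 43.3% ± 1.42 in P10-wt, and Tuba1b 9.24% ± 0.764 and 4.48% ± 0.626. So divided, Tuba4a held 12.8% ± 0.915 in P28-wt and 2.33% ± 0.803 in P10-wt, and the share of Tubb4a too was lower than by RPKM in either group.

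Within the alpha-tubulins, the share of Tuba4a was higher and that of Tuba1a lower in P28-wt than in P10-wt. Tuba4a was 49.7% ± 2.50 of alpha-tubulin RPKM in P28-wt and 10.6% ± 3.56 in P10-wt, and Tuba1a 43.1% ± 1.75 and 85.3% ± 4.08 (SD, n = 4 each). The ratio of Tuba4a to Tuba1a was 1.02 to 1.28 in the P28-wt libraries and 0.0579 to 0.154 in the P10-wt libraries. Which of the 2 was the larger at day 28 turned with the division by unique windows, which gave a ratio of 0.440 to 0.548 in P28-wt and 0.0248 to 0.0659 in P10-wt. Among beta-tubulins, the ratio of Tubb4a to Tubb3 was 2.18 to 2.40 in P28-wt and 0.218 to 0.393 in P10-wt. The ratio of summed alpha- to summed beta-tubulin RPKM moved little by comparison, 0.574 ± 0.0165 in P28-wt and 0.545 ± 0.0141 in P10-wt (SD, n = 4 each), and its libraries overlapped between the ages. With levels divided by the share of unique windows it was 0.922 in P28-wt and 1.01 in P10-wt.

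**Figure D3:**
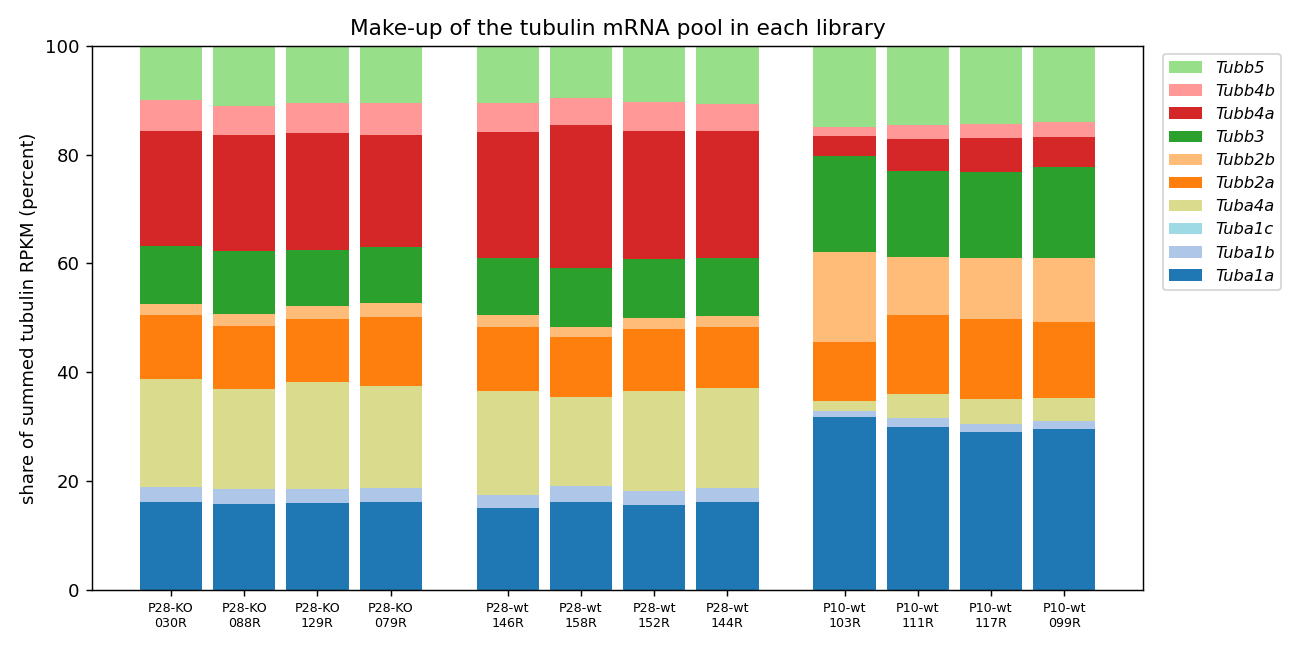
Share of each isotype in the summed RPKM of the 10 tubulins (y axis, percent) in each library (x axis), with P28-KO, P28-wt and P10-wt side by side. Tuba4a and Tubb4a together fill 41.8% to 42.7% of the P28-wt bars and 5.66% to 10.7% of the P10-wt bars, the lowest being 103R.

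Markers of several cell types moved with the tubulins, in a comparison where 31.2% of all genes were called lower and 26.7% higher in P28-wt. All 10 genes of young neurons in the list used (among them Dcx, Gap43 and Stmn2) were called lower in P28-wt, with a summed level of 667 to 824 RPKM in P28-wt, against 2804 to 3910 RPKM in P10-wt. Of 10 genes of mature neurons, 7 were called higher and none lower (3844 to 4074 RPKM in P28-wt, against 1340 to 2010 RPKM in P10-wt). All 12 genes of oligodendrocytes and myelin were called higher, with 2006 to 2820 RPKM in P28-wt, against 44.8 to 138 RPKM in P10-wt, and no gene of these 3 lists was at 0 in every library. All 8 microglia genes were called higher (147 to 158 RPKM in P28-wt, against 53.7 to 86.8 RPKM in P10-wt). Of 8 astrocyte genes, 5 were called higher and 1 lower (663 to 693 RPKM in P28-wt, against 298 to 470 RPKM in P10-wt). Of 6 genes of dividing cells that were tested, 5 were called lower, and the sum over all 8 of the list was 18.9 to 23.6 RPKM in P28-wt, against 31.9 to 43.9 RPKM in P10-wt. Sums of oligodendrocyte precursor genes overlapped in part (108 to 118 RPKM in P28-wt, against 117 to 129 RPKM in P10-wt), and those of endothelial and mural genes overlapped (71.9 to 97.5 RPKM, against 83.3 to 100.4 RPKM). In 103R, the library with the highest Tuba1a, Tubb2b, Tubb3 and Tubb5 and the lowest Tuba4a and Tubb4a of its group, the young-neuron sum was the highest (3910 RPKM) and the mature-neuron and myelin sums the lowest (1340 and 44.8 RPKM). The part of cell make-up in the tubulin changes was not tested, and in bulk tissue fewer cells of a type and less RNA per cell cannot be told apart.

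Across the 12 libraries, 5 of the 6 tubulins that fell followed each other closely. Pearson's r of log2(RPKM + 0.1) was 0.984 to 0.998 between any 2 of Tuba1a, Tubb2a, Tubb2b, Tubb3 and Tubb5. It was lower for Tuba1b, the sixth, at 0.846 to 0.903 with each of these 5, and 0.904 between Tuba4a and Tubb4a. Every r in this paragraph includes the difference between the ages, which alone can make r high for genes that change with age. None was computed within an age. Among 12621 other genes that averaged 1 RPKM or more, the 3 most like Tubb2b were Ncam1, the neural cell adhesion molecule (r = 0.9989), Crmp1, a collapsin response mediator protein (r = 0.9980), and Dok4 (r = 0.9975). Crmp1 had a mean of 71.5 RPKM in P28-wt, against 386 RPKM in P10-wt. The 3 most like Tuba4a were Brinp2 (r = 0.9930), Ttyh1 (r = 0.9923) and Kcnj4, an inward rectifier potassium channel (r = 0.9923). Kcnj4 had 66.7 RPKM in P28-wt, against 25.9 RPKM in P10-wt.

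**Figure D4:**
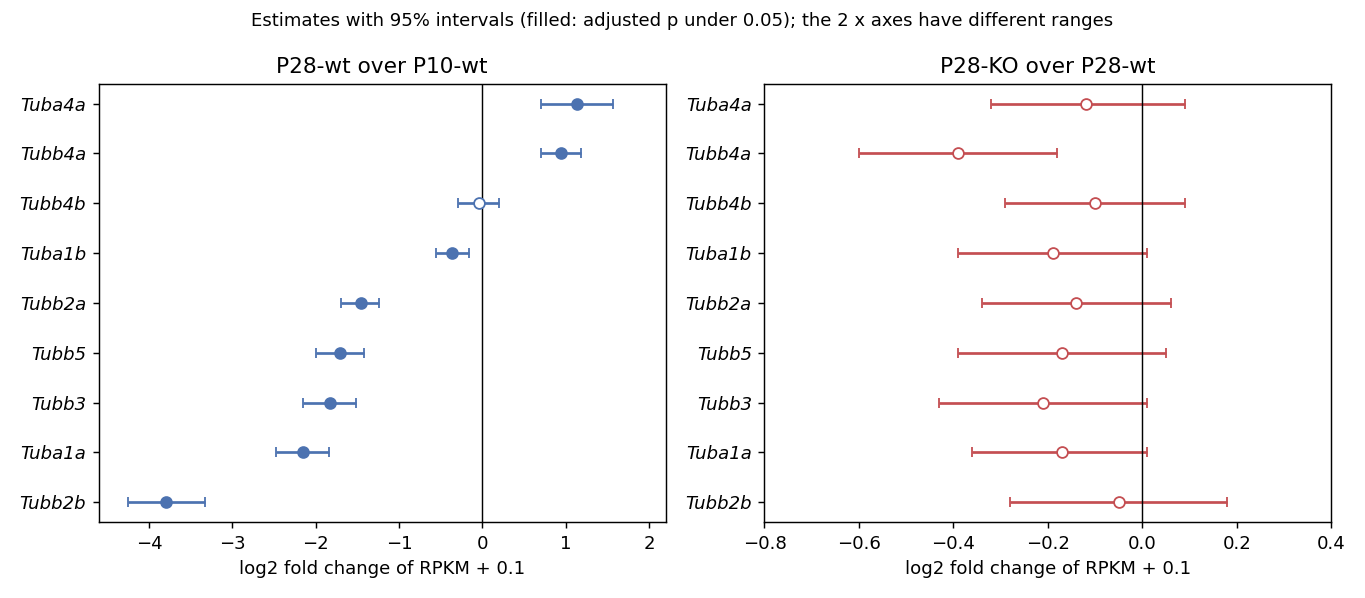
Log2 fold change of RPKM + 0.1 (x axes, which differ in range) with 95% intervals for the 9 tubulins tested (y axes), for P28-wt over P10-wt on the left and P28-KO over P28-wt on the right; filled points passed an adjusted p of 0.05. By age the estimates run from -3.79 (Tubb2b) to 1.14 (Tuba4a), and by genotype from -0.39 (Tubb4a) to -0.05 (Tubb2b) with no point filled.

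The comparison by genotype asks whether loss of miR-132 and miR-212 alters the tubulins at day 28. No tubulin was called. Over all 13927 genes limma called 2 lower (0.0144%), Mir132 and Mir212 themselves, and none higher (0%), and 1724 genes had an unadjusted p under 0.05. A regularized test rebuilt from the methods of the study called 651 genes higher and 966 lower (6.94%) at a posterior probability above 0.6, among them 1 tubulin, Tubb4a, with 0.791. All 9 tubulins tested had a log2 fold change below 0, as had 56.3% of all genes, and their median was -0.17, against -0.03 over all genes.

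Tubb4a had 358, 413, 365 and 352 RPKM in P28-KO, against 467, 521, 535 and 433 RPKM in P28-wt. It was the only tubulin whose groups did not overlap, which held for 3.62% of all genes in this direction and 1.87% in the other. The mean in P28-KO was 0.761 times that in P28-wt, giving a log2 fold change of -0.39 with a 95% interval of -0.60 to -0.18. The unadjusted p of 0.00175 was under 0.05, as for 8.11% of all genes in this direction, and the adjusted p over all genes was 0.382 (0.121 to 0.731 over the alternatives with limma). Tubb4a held 20.6% to 21.4% of the tubulin pool in P28-KO and 23.1% to 26.2% in P28-wt, groups that again did not overlap. The ratio of Tubb4a to Tubb3 was 1.86 to 2.06 in P28-KO and 2.18 to 2.40 in P28-wt.

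Genes of oligodendrocytes and myelin lay lower in the same libraries. None of the 12 passed limma's adjusted p of 0.05, 8 had an unadjusted p under 0.05, and all 12 had a log2 fold change below 0, with a median of -0.29. Over all genes tested, 8.11% were lower with an unadjusted p under 0.05 and 56.3% had a log2 fold change below 0, with a median of -0.03. Their summed level was 1537 to 1944 RPKM in P28-KO, against 2006 to 2820 RPKM in P28-wt, so these groups did not overlap either. Mbp, a main structural protein of myelin, had a log2 fold change of -0.51 (adjusted p = 0.382). The summed level of the 10 mature-neuron genes was 3564 to 3678 RPKM in P28-KO, against 3844 to 4074 RPKM in P28-wt, again without overlap. Of these genes, 8 had a log2 fold change below 0 and 2 above, and 3 had an unadjusted p under 0.05 from limma. The young-neuron sums overlapped (628 to 680 RPKM, against 667 to 824 RPKM), but the 10 genes split, 5 below 0 and 5 above. Such a p was reached by 4 of them, Dcx, Dpysl3 and Sox11 higher and Marcksl1 lower in P28-KO. No gene of either list was called, and 12.4% of all genes had such a p in either direction. The part of any of these cell types in the level of Tubb4a was not tested.

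**Figure D5:**
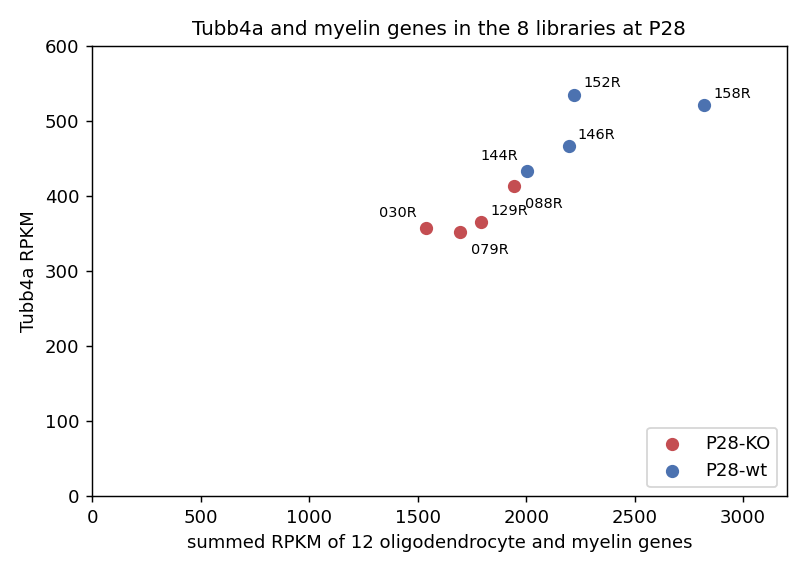
Tubb4a (y axis, RPKM) against the summed RPKM of 12 genes of oligodendrocytes and myelin (x axis) in the 4 P28-KO and 4 P28-wt libraries, named by number. The P28-KO libraries lie between 352 and 413 RPKM on y and 1537 and 1944 RPKM on x, below all P28-wt libraries on either axis.

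The other tubulins differed less between the genotypes, and their groups overlapped. Tubb3 had 181, 222, 178 and 176 RPKM in P28-KO, against 212, 217, 245 and 197 RPKM in P28-wt, giving a log2 fold change of -0.21 with a 95% interval of -0.43 to 0.01. Library 088R was the highest of the P28-KO group and exceeded 3 of the 4 P28-wt libraries. Tuba1a had 275, 304, 274 and 276 RPKM in P28-KO, against 304, 320.1, 355 and 297 RPKM in P28-wt (log2 fold change -0.17, interval -0.36 to 0.01). For Tuba1b the log2 fold change was -0.19 (interval -0.39 to 0.01), for Tubb5 -0.17 (-0.39 to 0.05) and for Tubb2a -0.14 (-0.34 to 0.06).

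Tuba4a, which rose with age, had 338, 356, 336 and 323 RPKM in P28-KO, against 389, 328, 417 and 341 RPKM in P28-wt, giving a log2 fold change of -0.12 (interval -0.32 to 0.09). Tubb2b, which fell most with age, had 34.7, 43.9, 40.3 and 45.6 RPKM in P28-KO, against 46.2, 37.3, 46.0 and 40.2 RPKM in P28-wt, with a log2 fold change of -0.05 (interval -0.28 to 0.18). Both pairs of groups overlapped widely. For Tubb4b, at 95.4 to 100.3 RPKM in P28-KO and 92.3 to 119 RPKM in P28-wt, the log2 fold change was -0.10 (interval -0.29 to 0.09). The signs of Tuba4a, Tubb2b and Tubb4b turned with quantile normalization. Tuba1c, not tested, had 0.0535 to 0.278 RPKM in P28-KO and 0.171 to 0.319 RPKM in P28-wt, about 3 to 14 and 9 to 16 reads. The summed RPKM of the 10 tubulins was 1696 to 1926 in P28-KO and 1849 to 2271 in P28-wt, and the summed RPKM of all genes 256643 to 274763 and 265427 to 293066, each with an overlap.

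Shares other than that of Tubb4a lay close together. Tuba1a held 16.1% ± 0.185 of the pool in P28-KO and 15.7% ± 0.496 in P28-wt, Tuba4a 19.2% ± 0.679 and 18.1% ± 1.15, Tubb3 10.7% ± 0.549 and 10.7% ± 0.195, and Tubb2b 2.34% ± 0.254 and 2.09% ± 0.177 (SD, n = 4 each). The alpha to beta ratio was 0.611 ± 0.0218 in P28-KO and 0.574 ± 0.0165 in P28-wt (SD, n = 4 each), with ranges of 0.587 to 0.636 and 0.551 to 0.591. The order of the means was that of P28-wt for all 10 genes. The 4 isotypes at the top were Tubb4a (372 RPKM in P28-KO), Tuba4a (338), Tuba1a (282) and Tubb2a (208), and here the libraries of Tubb4a and Tuba4a overlapped.

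The microRNAs of the deleted locus are shown because a microRNA pairs with the 3' UTR of its targets through bases 2 to 8, its seed, given in capitals (RefSeq, GRCm38.p6).
mmu-miR-132-3p, chr11:75173723-75173744, plus strand: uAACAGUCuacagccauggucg
mmu-miR-212-3p, chr11:75173443-75173464, plus strand: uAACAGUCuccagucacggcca
mmu-miR-132-5p, chr11:75173686-75173707, plus strand: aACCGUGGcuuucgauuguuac
mmu-miR-212-5p, chr11:75173403-75173425, plus strand: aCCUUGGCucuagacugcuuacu
MiR-132-3p and miR-212-3p share the seed, and the others have seeds of their own. The reverse complement of the shared seed, GACTGTT, occurred in none of the longest annotated 3' UTRs of the 10 tubulins and in 12.2% of those of 12532 genes tested, and CCACGGT, for miR-132-5p, in none of the 10 and in 3.20%. GCCAAGG, for miR-212-5p, occurred in 12.2% of the genes and in 1 tubulin, Tuba4a, at position 196 of a 3' UTR of 650 bases, shown with the match in capitals.
Tuba4a site, chromosome 1: cagtgagacttGCCAAGGgggccccatat
Tuba4a was among the 8 tubulins other than Tubb4a whose genotype difference had an interval that included 0. The shares over all genes were not matched for 3' UTR length, on which matches by chance depend. A match is a description of letters and does not show that a microRNA binds there.

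Promoters are shown for 2 isotypes that fell with age (Tuba1a and Tubb3) and the 2 that rose (Tuba4a and Tubb4a). Each runs from 250 bases before to 50 bases after the start annotated in the promoter set used (GRCm38.p6). For Tubb3, Tuba4a and Tubb4a this start is not the 5' end of the gene in the deposited RPKM table, so these windows are not placed by that end. Capitals mark the CCAAT box (CCAAT), the TATA box (TATAAA), the GC box bound by Sp1 (GGGCGG) and the cyclic AMP response element (TGACGTCA), each searched on both strands. Only these exact letters were searched, so variant forms of a motif are left unmarked and uncounted.
Tuba1a, chr15:98953452-98953751, minus strand: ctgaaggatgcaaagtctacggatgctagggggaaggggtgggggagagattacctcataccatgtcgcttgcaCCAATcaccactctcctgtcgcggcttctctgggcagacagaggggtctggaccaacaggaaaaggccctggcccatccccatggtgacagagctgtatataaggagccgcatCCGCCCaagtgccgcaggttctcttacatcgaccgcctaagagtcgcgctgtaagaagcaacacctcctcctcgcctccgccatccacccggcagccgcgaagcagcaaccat
Tubb3, chr8:123411303-123411602, plus strand: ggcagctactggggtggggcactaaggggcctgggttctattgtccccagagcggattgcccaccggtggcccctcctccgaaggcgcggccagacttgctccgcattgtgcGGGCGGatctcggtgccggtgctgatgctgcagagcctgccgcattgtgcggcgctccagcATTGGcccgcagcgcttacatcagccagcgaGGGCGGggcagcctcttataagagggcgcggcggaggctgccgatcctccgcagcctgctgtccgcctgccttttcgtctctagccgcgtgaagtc
Tuba4a, chr1:75219245-75219544, minus strand: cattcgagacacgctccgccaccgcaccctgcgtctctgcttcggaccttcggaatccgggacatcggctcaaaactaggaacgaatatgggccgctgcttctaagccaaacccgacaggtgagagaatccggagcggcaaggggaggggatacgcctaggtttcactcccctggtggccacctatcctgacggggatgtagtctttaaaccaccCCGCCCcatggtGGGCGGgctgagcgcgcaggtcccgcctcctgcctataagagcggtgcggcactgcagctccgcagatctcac
Tubb4a, chr17:57087551-57087850, minus strand: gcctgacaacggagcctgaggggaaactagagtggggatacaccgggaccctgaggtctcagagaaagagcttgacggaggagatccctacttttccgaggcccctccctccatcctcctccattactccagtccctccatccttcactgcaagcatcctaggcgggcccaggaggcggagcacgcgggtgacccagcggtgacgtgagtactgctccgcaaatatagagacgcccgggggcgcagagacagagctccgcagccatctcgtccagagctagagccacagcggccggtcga
The table of promoters matched 9 of the 10 genes, not Tubb2b. CCAAT occurred in 5 of the 9 (Tuba1a, Tuba1c, Tubb3, Tubb4b and Tubb5), against 37.9% of 27025 promoters, and in neither Tuba4a nor Tubb4a. GGGCGG occurred in 7 of the 9, all but Tuba1c and Tubb4a, against 35.9% of all promoters. TATAAA occurred in Tubb2a and Tubb4b (14.2% of all promoters), and TGACGTCA in Tubb2a alone (1.88%). The window of Tubb4a held none of the 4 motifs. No link between these letters and the levels was tested.

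The other tubulins of the table were much rarer than the main isotypes. Of 10 such genes, 6 passed the minimum, of which 2 were called higher and 3 lower in P28-wt than in P10-wt. Over all genes tested, 26.7% were called higher and 31.2% lower. Tuba8, an alpha-tubulin with a divergent tail, rose to 9.30 ± 1.43 RPKM in P28-wt, against 1.15 ± 0.320 RPKM in P10-wt (SD, n = 4 each; log2 fold change 2.94, SE 0.20, adjusted p = 2.00e-06). Tubg2, a gamma-tubulin, rose too, at 28.3 ± 2.13 RPKM in P28-wt and 21.3 ± 1.67 RPKM in P10-wt. Tubb6, a minor beta-tubulin, and Tubd1, delta-tubulin of the centriole, fell by 0.58 and 0.46 on the log2 scale.

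Cofactors that fold tubulin or assemble the dimer mostly moved downwards. Of 21 genes (prefoldin, the CCT chaperonin, the tubulin cofactors and their regulators), 13 fell and 3 rose, where 31.2% of all genes fell and 26.7% rose. Their median log2 fold change was -0.36, against -0.05 for all genes. Cct6a, a subunit of the CCT chaperonin that folds newly made tubulin, had 48.0 ± 1.49 RPKM in P28-wt and 99.6 ± 7.70 RPKM in P10-wt (SD, n = 4 each; log2 fold change -1.05, adjusted p = 2.50e-06). Tbca, which captures beta-tubulin, fell by 1.02 in log2 terms (adjusted p = 0.00477), with an SD of 18.1 around a mean of 39.9 RPKM in P28-wt. Arl2, a small GTPase that acts with the cofactors, and Pfdn2, a prefoldin subunit, rose by 0.74 and 0.60. Of 10 genes that act in or around the co-translational decay of tubulin mRNA by excess tubulin, 3 fell and none rose, a share near the 31.2% of all genes that fell, and the median of -0.06 was near the -0.05 of all genes. Among the 3 were Cnot6 and Cnot1, of the deadenylase complex, at -0.58 and -0.41.

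Enzymes that modify tubulin moved in either direction, as did 31.2% (lower) and 26.7% (higher) of all genes tested. Among 6 genes of tyrosine and acetyl modification, 4 fell and 1 rose, with a median below that of all genes. Vash2, a tubulin carboxypeptidase that removes the terminal tyrosine, had 0.889 ± 0.126 RPKM in P28-wt and 8.30 ± 4.39 RPKM in P10-wt (SD, n = 4 each; log2 fold change -2.98, adjusted p = 1.02e-05), and Atat1, the alpha-tubulin acetyltransferase, fell by 1.36. Sirt2, a tubulin deacetylase rich in oligodendrocytes, rose by 0.83 (adjusted p = 9.08e-05). Of 20 genes of glutamylation and glycylation, 13 were tested, of which 5 rose and 6 fell, where 26.7% of all genes rose and 31.2% fell. Ttll11, a polyglutamylase, and Agbl4, a deglutamylase, rose by 1.31 and 0.91, while Ttll12, a member of the tubulin tyrosine ligase-like family, and Agbl5, a deglutamylase, fell by 1.03 and 0.69.

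Of 17 genes of microtubule nucleation and severing, 6 fell, near the 31.2% of all genes that did, and none rose, where 26.7% of all genes did. The median was 0.00. Camsap3, which caps microtubule minus ends, had 7.23 ± 0.952 RPKM in P28-wt and 18.0 ± 2.97 RPKM in P10-wt (SD, n = 4 each; log2 fold change -1.30, adjusted p = 1.99e-05), and Spast, the severing enzyme spastin, fell by 1.10. By genotype, no gene of these 6 lists was called, and the list medians lay between -0.14 and 0.06, against -0.03 for all genes. Unadjusted p-values under 0.05 numbered 2 of 21 for the cofactors, 2 of 10 for the decay genes, 1 of 6 for tyrosine and acetyl modification, 3 of 13 for glutamylation and glycylation, and 0 in the 2 other lists, where 12.4% of all genes had such a p in either direction.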

How the data were processed

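Visual cortex RNA of 12 mouse libraries was analysed, 4 each for P28-KO, P28-wt and P10-wt. The authors extracted RNA with QIAzol, prepared TruSeq libraries, aligned paired-end reads to mm10 with ELAND and RefSeq models, removed reads placed at several locations and deposited RPKM values. The submitters' processing notes name CASAVA 1.8.2, SAMtools 0.1.19 and Bowtie 0.12.8.

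Each pair of groups was fitted by itself with limma 3.58.1 (R 4.3.3), two-sided, on log2(RPKM + 0.1) and allowing the variance to follow mean expression. A gene entered when its RPKM averaged 0.5 or more over all 12 libraries, which left 13927 genes, and was called below 0.05 after Benjamini-Hochberg adjustment over all of them. Folds on this scale understate the change of low genes. The limma fit of each pair was tested on simulated data. Alternatives were other pseudocounts (0.01 and 1), other minimums, scalings and fits, a regularized t-test, removal of a GC and length trend, a replicate block and leaving out each library. Python 3.11.15 matched symbols to RefSeq models and drew the figures.

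Members and gene lists were chosen with earlier results of these data known. All 10 tubulins are named, and, from each related list, up to 2 higher and 2 lower called genes with the largest change and 1 RPKM or more on average, as are the 3 genes most like the tubulin that rose most and the one that fell most. Small RNA libraries were not analysed here.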

Additional observations from a re-analysis of the deposited data

Results flagged for a closer look

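Among 66 sets of 4 libraries (levels, shares, the alpha to beta ratio and the summed level), 9 held an outlying library. Its gap to the next was a larger part of the range than Dixon's critical value at 95% allows. Chance gives this in about 1 of 20 independent sets. These sets share levels, so a library can count more than once and the 9 cannot be set against that rate. Library 103R of P10-wt accounts for 5 of the 9. It was low for Tuba4a (106 RPKM, others 186 to 201) and Tubb4a (220.2 RPKM, others 260.1 to 268). It was also low in the shares of Tuba1b (1.15%, others 1.53% to 1.55%), Tuba4a (1.84%, others 4.23% to 4.50%) and Tubb4b (1.61%, others 2.53% to 2.61%). Library 088R of P28-KO was high for Tuba1a (304 RPKM, others 274 to 276), Tubb3 (222 RPKM, others 176 to 181) and the summed level of the 10 tubulins (1926 RPKM, others 1696 to 1711). Library 158R of P28-wt was high in the share of Tubb4a (26.2%, others 23.1% to 23.6%), and had the highest myelin sum of its group (2820 RPKM). Without 103R, the calls by age among the tubulins were the same in number and direction, 2 higher and 6 lower in P28-wt.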

How the results depend on the processing

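By age, the 8 calls among the tubulins held under every alternative run: other pseudocounts, minimums, scalings, fits and tests, and without any 1 library. Tubb4b, not called, had a log2 fold change of 0.0032 with median-ratio scaling and -0.25 (adjusted p = 0.0424 from limma) with a trend on GC content and length removed, and -0.11 to 0.02 without 1 library. By genotype no tubulin was called by limma under any alternative. The regularized test called 651 genes higher and 966 lower in P28-KO, and 1 tubulin lower. With quantile normalization the log2 fold change was 0.01 for Tuba4a, 0.03 for Tubb2b and 0.01 for Tubb4b, and with the trend removed it was 0.03 for Tubb2b and 0.02 for Tubb4b. Without 1 library, that of Tubb2b ran from -0.11 to 0.03, the highest value without P28-KO library 030R. The cause of these turns was not tested. The scalings moved the median of all genes by less than 0.1 on the log2 scale. The alpha to beta ratio, with levels divided by the share of unique windows (added after the data were seen), was 0.961 in P28-KO, 0.922 in P28-wt and 1.01 in P10-wt. This division moved 23 of 30 mean shares by more than 1 SD, and leaving out 1 library moved 0 of 120. Shares within the alpha or beta class all differ from shares of the pool by construction. The column names number the libraries of each group alike. With this number as a replicate block, added after the data were seen, limma called 3625 genes higher and 4244 lower by age and 0 higher and 2 lower by genotype, and the call of no tubulin changed. Same-numbered libraries correlated in their deviations from the group means at -0.049 to 0.114 by age and -0.091 to 0.281 by genotype, and not every library correlated best with its own number, so they were not taken as pairs. Depth limits Tuba1c most, with as few as about 3 reads in a P28-KO library.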
